A study of Mus musculus with 6 samples.

Results

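Ncr1, Cd244a, Slamf7 and Zap70, 4 genes of natural killer (NK) cell activation, were followed across 6 RNA-seq libraries. Ncr1 encodes the receptor NKp46, Cd244a and Slamf7 encode receptors of the SLAM family, and Zap70 encodes a tyrosine kinase. They were taken by gene symbol from a deposited table of 559 genes, and all 4 were found. NK cells purified from the spleens of C57BL/6 mice were kept for 36 h in the presence of 0.2 mM oleic acid (OA), which is a monounsaturated fatty acid, or in its absence, and 3 OA and 3 control libraries were made. Per the labels, the treatment was carried out a single time, and nothing says that the libraries of a group came from separate mice or cultures, so p-values measure only the spread between these libraries, which may be technical. Levels are given in TPM, a length-corrected share of a library's transcripts; read numbers, and with them depth and counting error, are unknown. Every gene of the table had an authors' Q value under 0.05 for this same contrast, so each of the 4 genes had already been selected for a difference between OA and control, and a gene not in the table is called not listed, and may or may not have differed.

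NK cells kill without prior priming, and the decision rests on a balance of activating and inhibitory receptors. NKp46 carries no ITAM motif in its own tail and pairs with adaptor chains that do; ITAMs, once phosphorylated by Src-family kinases such as Lck and Fyn, recruit the kinases ZAP-70 and Syk. SLAM receptors bind other SLAM family proteins, in the case of CD244 (2B4) the protein CD48 and in the case of SLAMF7 (CRACC) another SLAMF7 molecule, and signal through small SH2 adaptors rather than ITAMs. NKp46 is the receptor most nearly restricted to NK cells and related innate lymphocytes, whereas T cells also carry ZAP-70, and CD244 and SLAMF7 are found on further leukocytes.

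Cd244a and Slamf7 belong to the cluster of SLAM receptor genes on chromosome 1. In RefSeq on GRCm38.p6, Cd244a lies at chr1:171558718-171585316 and Slamf7 at chr1:171632403-171653037, with 47086 bases between them and the SLAM gene Ly9, which is not listed, in that interval. Zap70 lies on the same chromosome at chr1:36761798-36782821 and Ncr1 on another, at chr7:4337715-4345184. In the GENCODE M21 annotation of the same build, one extended Cd244a gene model overlaps Ly9 on the opposite strand over 18787 bases. The annotation and any strand setting the authors counted with are not given in the sources used here, so Cd244a values could include Ly9 reads.

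The promoter sequences of the 4 genes are shown as background, and their part in the differences between OA and control was not tested. Each sequence runs 5′ to 3′ on the gene's own strand, from 250 to 11 bases before the RefSeq start site nearest the gene's 5′ end, in GRCm38.p6, and holds 240 bases; for Slamf7 and Cd244a the RefSeq gene span starts further upstream than this window. Capitals mark matches on either strand to TGTGGT (RUNX), GGTGTG (T-box), AGGAA (ETS) or TTCNNNGAA (STAT), 1 string for each of 4 factor families active in lymphocytes. Shorter or variant forms of these sites were not searched and stay in lower case.
Ncr1 promoter, chr7:4337465-4337704, plus strand: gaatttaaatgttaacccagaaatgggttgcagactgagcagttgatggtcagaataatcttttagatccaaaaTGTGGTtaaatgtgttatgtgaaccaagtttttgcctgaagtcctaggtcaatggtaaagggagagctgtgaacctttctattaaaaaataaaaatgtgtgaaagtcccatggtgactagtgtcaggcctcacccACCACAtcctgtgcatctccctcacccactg
Cd244a promoter, chr1:171558943-171559182, plus strand: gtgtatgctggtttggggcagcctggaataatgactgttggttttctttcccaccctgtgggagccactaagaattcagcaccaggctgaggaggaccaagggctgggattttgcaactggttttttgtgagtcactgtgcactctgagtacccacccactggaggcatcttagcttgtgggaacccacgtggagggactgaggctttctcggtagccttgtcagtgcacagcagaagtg
Slamf7 promoter, chr1:171649010-171649249, minus strand: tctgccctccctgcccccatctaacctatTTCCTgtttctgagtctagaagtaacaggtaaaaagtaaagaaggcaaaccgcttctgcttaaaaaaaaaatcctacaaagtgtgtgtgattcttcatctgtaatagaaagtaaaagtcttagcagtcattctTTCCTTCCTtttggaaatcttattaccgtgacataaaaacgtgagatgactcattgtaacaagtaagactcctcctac
Zap70 promoter, chr1:36761548-36761787, plus strand: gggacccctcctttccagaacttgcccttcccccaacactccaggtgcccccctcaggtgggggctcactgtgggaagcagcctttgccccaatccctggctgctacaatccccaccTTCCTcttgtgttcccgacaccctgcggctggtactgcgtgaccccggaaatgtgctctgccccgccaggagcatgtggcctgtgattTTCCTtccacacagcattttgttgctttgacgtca
Matches to the RUNX letters stood in the Ncr1 window alone, once on each strand, 176 and 41 bases before the start. The RUNX letters were present in 13.6% of all 32851 RefSeq windows of this length and in 16.4% of the 544 windows of listed genes. ETS letters matched 3 times in the Slamf7 window, of which 2 share a base, and 2 times in the Zap70 window, against 58.9% of all windows with at least 1 match. None of the 4 windows held the T-box or STAT letters, present in 15.7% and 6.77% of all windows. The Cd244a window held no match to any of the 4 strings. No string was present in all 4 windows, and other forms of these sites were not counted.

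All 4 genes had lower mean transcript levels in OA libraries than in control libraries, by 30.1% for Ncr1, 27.5% for Cd244a, 17.0% for Zap70 and 15.4% for Slamf7. In limma on log2(TPM + 1), with Benjamini-Hochberg adjustment over all 559 genes and a threshold of 0.05, Ncr1, Cd244a and Zap70 fell, and Slamf7 did not pass. That makes 3 of 4, where 40.1% of the whole table was called lower. OA and control libraries did not overlap for any of the 4 genes, which was so, with OA lower, for 48.5% of the table. In the authors' deposited table the 4 genes were lower with a Q value under 0.05, as were 48.7% of its genes. As the table holds selected genes only, these shares describe the table and not the transcriptome.

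Ncr1 showed the largest difference of the 4. Its level was 105, 91.4 and 79.1 TPM in OA replicates 1, 2 and 3, against 128, 126 and 140 TPM in control replicates 1, 2 and 3. The groups lay apart by 21.2 TPM between the highest OA and the lowest control library, more than the 13.7 TPM spanned by the control libraries and less than the 25.9 TPM spanned by the OA libraries. The means were 91.8 ± 12.9 TPM in OA and 131 ± 7.42 TPM in control (SD, n = 3 each), a log2 fold change of −0.52 (SE 0.116, 95% interval −0.81 to −0.23, adjusted p = 0.026, limma). The authors' deposited table gives a log2 fold change of −0.51 with a Q value of 1.9e-05. In a ranking of the 559 log2 fold changes from the most negative upwards, Ncr1 was at position 35.

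Cd244a was the least abundant and the most variable of the 4. It stood at 36.1, 33.4 and 25.9 TPM in OA replicates 1, 2 and 3, against 42.7, 39.3 and 49.5 TPM in control replicates 1, 2 and 3. OA replicate 3 and control replicate 3 were the extreme libraries, and only 3.28 TPM separated the nearest libraries of the groups. Means were 31.8 ± 5.28 TPM in OA and 43.8 ± 5.16 TPM in control (SD, n = 3 each), and the fall was −0.46 on the log2 scale (SE 0.152, 95% interval −0.84 to −0.07, adjusted p = 0.0413, limma). Without replicate 3 of either group the log2 fold change was −0.23 (adjusted p = 0.0486, limma), and without OA replicate 3 alone it was −0.32 and did not pass (adjusted p = 0.0552, limma). The deposited table of the authors lists −0.44 with a Q value of 0.0148.

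Slamf7 was the most abundant of the 4 and had the smallest relative difference. Levels were 124, 128 and 102 TPM in OA replicates 1, 2 and 3, against 132, 142 and 145 TPM in control replicates 1, 2 and 3. OA replicate 3 stood below the other two OA libraries, and the highest OA library was 3.82 TPM under the lowest control library. The mean was 118 ± 13.6 TPM in OA and 139 ± 6.91 TPM in control (SD, n = 3 each), with a log2 fold change of −0.24 whose interval included 0 (SE 0.101, 95% interval −0.50 to 0.01, unadjusted p = 0.0572, adjusted p = 0.0662, limma). Without OA replicate 3 the log2 fold change of Slamf7 was −0.15, and without replicate 3 of either group −0.12. In the authors' deposited table Slamf7 has a log2 fold change of −0.25 and a Q value of 0.00875, and with an intensity trend and robust prior in limma it passed (adjusted p = 0.0386).

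Zap70, the kinase, varied least between libraries. It was measured at 69.5, 64.2 and 60.8 TPM in OA replicates 1, 2 and 3, against 78.5, 75.7 and 80.0 TPM in control replicates 1, 2 and 3. The groups were 6.22 TPM apart at their nearest libraries, more than the 4.31 TPM spanned by the control libraries and less than the 8.66 TPM spanned by the OA libraries. Means were 64.8 ± 4.37 TPM in OA and 78.1 ± 2.19 TPM in control (SD, n = 3 each), a fall of −0.27 on the log2 scale (SE 0.0656, 95% interval −0.43 to −0.10, adjusted p = 0.0282, limma). The coefficient of variation of Zap70 was 6.73% in OA and 2.80% in control, against 16.6% and 11.8% for Cd244a. The authors' deposited table gives a log2 fold change of −0.26 with a Q value of 0.00742.

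**Figure D1:**
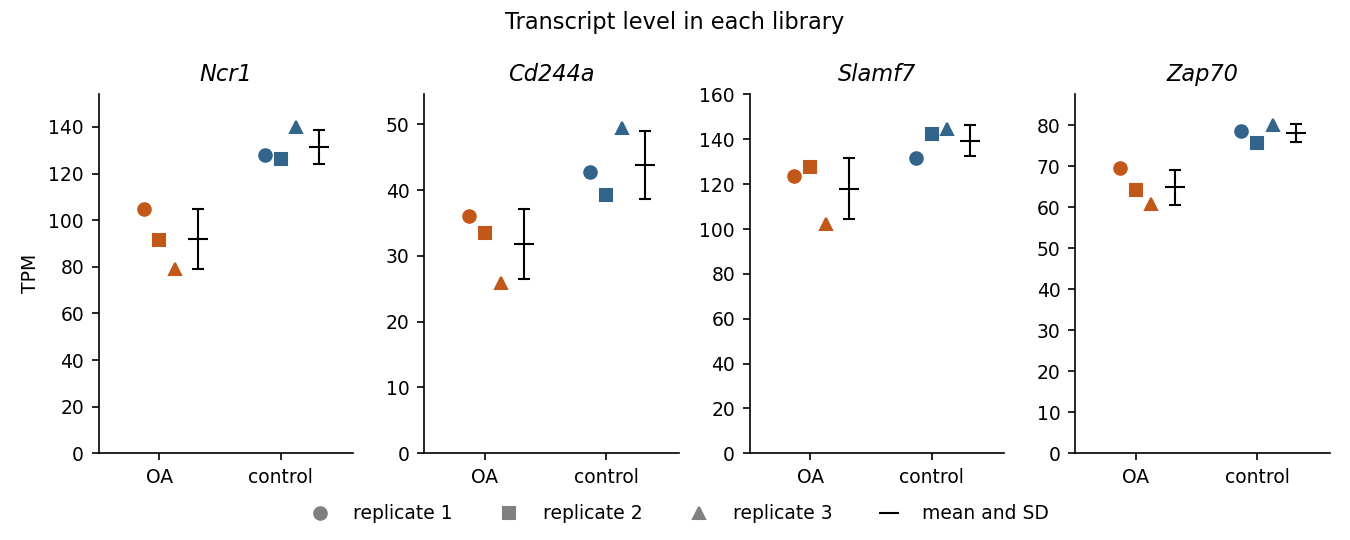
TPM of Ncr1, Cd244a, Slamf7 and Zap70 in each OA and control library (points, marked by replicate number), with mean and SD over 3 libraries; each axis starts at 0. OA replicate 3 is the lowest and control replicate 3 the highest library for each gene, and the groups lie 21.2 TPM apart at their nearest libraries for Ncr1 but 3.28 TPM for Cd244a and 3.82 TPM for Slamf7.

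The calls depended on single libraries. In limma 0 of the 4 genes passed without OA replicate 2, without control replicate 1, without control replicate 2 or without control replicate 3, while 3 passed without OA replicate 1 and 2 without OA replicate 3. Calls were lost across the whole table in these fits. Of all 559 genes, 0 were called lower without OA replicate 2 and 0 without control replicate 1. Without control replicates 2 and 3 in turn 13 and 30 were, and without OA replicates 1 and 3 in turn 187 and 138. All log2 fold changes stayed negative, which non-overlapping groups fix in advance.

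By level, the order in both groups was Slamf7, Ncr1, Zap70 and Cd244a. Libraries of Slamf7 and Ncr1 overlapped within each group, although Ncr1 was below Slamf7 in each of the 6 libraries, and the other neighbours in the order did not overlap. The ratio of Ncr1 to Slamf7 TPM was 0.848, 0.715 and 0.772 in OA replicates 1, 2 and 3, against 0.974, 0.887 and 0.968 in control replicates 1, 2 and 3. That ratio was thus lower in each OA library, by −0.28 on the log2 scale (exact permutation p = 0.1, two-sided, the smallest that 3 against 3 libraries allow, and 0.3 adjusted over 6 pairs). The ratio of Ncr1 to Zap70 averaged 1.41 ± 0.106 in OA and 1.68 ± 0.0594 in control, also with no overlap (exact permutation p = 0.1, adjusted 0.3). Ratios of the remaining 4 pairs overlapped between the groups, with Ncr1 to Cd244a at 2.90 ± 0.161 in OA and 3.01 ± 0.190 in control and Slamf7 to Zap70 at 1.82 ± 0.157 in OA and 1.79 ± 0.103 in control. A ratio of genes of one library does not depend on how that library was scaled, and none of the 6 passed after adjustment, which this design did not allow.

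Among the SLAM family receptors and adaptors, a list of 12 genes, 4 were listed and 3 of these fell (2 of 2 without Cd244a and Slamf7). Of the whole table, 40.1% was called lower. The median log2 fold change of the 4 was −0.35, against 0.14 over all 559 genes and −0.17 over the 472 genes with a mean of 10 TPM or more. Besides Cd244a and Slamf7 the listed genes were Slamf8, a SLAM receptor of myeloid cells, and Fyn, the Src-family kinase that the adaptor SAP brings to SLAM receptors. Slamf8 averaged 61.5 ± 4.99 TPM in OA and 84.6 ± 7.06 TPM in control (SD, n = 3 each; log2 −0.45, adjusted p = 0.026, limma), a fold change close to that of Cd244a, and Fyn 74.9 ± 4.72 TPM in OA and 88.4 ± 3.97 TPM in control (log2 −0.24, adjusted p = 0.0326, limma). Not listed were the CD244 ligand gene Cd48, the receptors Slamf1, Ly9, Slamf6 and Slamf9, and the adaptors Sh2d1a (SAP), Sh2d1b1 and Sh2d1b2. Without OA replicate 3, and without control replicate 3, 1 of the 4 fell, where 138 and 30 of all 559 genes were called lower.

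Of 22 activating receptors and adaptors, 5 were listed, with a median log2 fold change of −0.39. Of these, 4 fell (3 of 4 without Ncr1) and Cd69 did not pass, where 40.1% of the whole table was called lower. Besides Ncr1 those that fell were lectin-like receptors: Klrk1 (NKG2D) averaged 118 ± 16.6 TPM in OA and 155 ± 4.94 TPM in control, Klrb1f 15.3 ± 2.68 TPM in OA and 22.9 ± 3.09 TPM in control, and Klrc3 16.1 ± 2.18 TPM in OA and 20.9 ± 0.671 TPM in control. Cd69, an early activation marker, averaged 205 ± 2.44 TPM in OA and 241 ± 25.5 TPM in control (adjusted p = 0.0543, limma). The adaptor genes through which NKp46 signals, Cd247 (CD3 zeta) and Fcer1g, were not listed, nor was Tyrobp (DAP12). In limma 4 of these 5 genes also fell without OA replicate 3, and 0 did without control replicate 3. Of all 559 genes, 138 and 30 were called lower in these fits.

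Downstream of ITAM receptors, 6 of 38 signalling genes were listed, with a median log2 fold change of −0.23. Of these, 5 fell (4 of 5 without Zap70) and Sh2d2a did not pass, where 40.1% of the whole table was called lower. Lck, the Src-family kinase that phosphorylates ITAMs and ZAP-70, averaged 97.7 ± 9.81 TPM in OA and 118 ± 6.32 TPM in control (SD, n = 3 each; log2 −0.27, adjusted p = 0.044, limma), a fold change near that of Zap70. Pik3cd, which encodes a catalytic subunit of PI3-kinase, averaged 130 ± 11.8 TPM in OA and 152 ± 3.74 TPM in control, and Rasgrp1, a Ras exchange factor, 81.9 ± 4.36 TPM in OA and 93.1 ± 4.49 TPM in control. The adaptor gene Sh2d2a averaged 111 ± 4.85 TPM in OA and 123 ± 3.85 TPM in control (adjusted p = 0.0508, limma). Syk, the other kinase of this step, and Lat, Lcp2, Vav1, Plcg1 and Plcg2 were not listed. With libraries scaled to equal sums 2 of the 6 fell. Leaving out OA replicate 3 gave 1 call and leaving out control replicate 3 gave 0. In these fits 198, 138 and 30 of all 559 genes were called lower.

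Of 19 inhibitory immunoglobulin-type receptors and checkpoints, 5 were listed: Lair1, Pvrig and Cd96 fell (log2 −0.45, −0.38 and −0.31), Cd300a rose (log2 0.45), and Lilrb4a did not pass. Over the whole table, 40.1% was called lower and 36% higher. Cd300a, which myeloid cells also carry, averaged 64.5 ± 5.17 TPM in OA and 47.1 ± 6.89 TPM in control (adjusted p = 0.0318, limma). It was not called in any of the 6 fits that left out 1 library, where 0 to 177 of all 559 genes were called higher. Without OA replicate 1, and without OA replicate 3, 3 of the list fell, and 0 did without control replicate 3. Of the SLAM, activating, ITAM signalling and inhibitory lists, 0 members were called without OA replicate 2, without control replicate 1 or without control replicate 2 (limma).

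**Figure D2:**
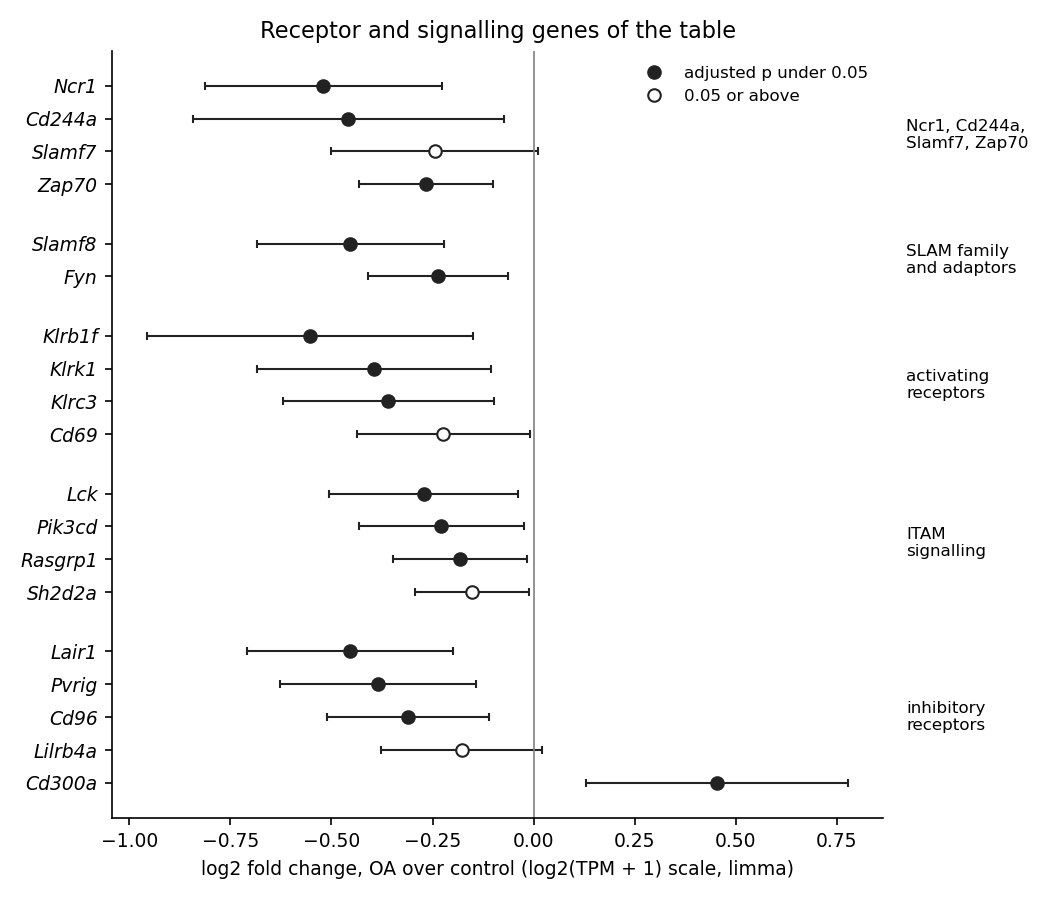
Log2 fold change of OA over control on the log2(TPM + 1) scale with 95% intervals (limma, n = 3 libraries each) for the 4 genes and the other listed members of 4 gene lists; filled points have an adjusted p under 0.05. All points but Cd300a lie below 0, with Ncr1 at −0.52 and Sh2d2a at −0.15.

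Transcripts that mark NK cells were lower in the same libraries. Of 24 NK markers other than the 4 genes, 14 were listed and 14 fell, where 40.1% of the whole table was called lower. Fewer fell with a library left out (13 without OA replicate 1, 11 without OA replicate 3, 2 without control replicate 2, 2 without control replicate 3, and 0 without OA replicate 2 or control replicate 1). In those fits, in the same order, the genes called lower among all 559 were 187, 138, 13, 30, 0 and 0. The summed level of the 14 markers was 4828 to 6207 TPM in OA libraries and 7495 to 8903 TPM in control libraries. In bulk RNA, fewer NK cells and less of a transcript per NK cell cannot be told apart. To set the 4 genes against other NK transcripts of the same library, each was divided by that sum. The 14 markers were themselves in the table because they differed in this contrast. All were lower in OA, so the sum is a reference selected on the contrast and not a neutral one. Ncr1 then came to 1.69, 1.57 and 1.64 TPM per 100 TPM of NK markers in OA replicates 1, 2 and 3, against 1.66, 1.68 and 1.57 in control replicates 1, 2 and 3. The groups overlapped, with means of 1.63 ± 0.0584 in OA and 1.64 ± 0.0585 in control and a log2 difference of −0.00245 (exact permutation p = 1, two-sided).

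Cd244a also overlapped, at 0.564 ± 0.0245 TPM per 100 TPM of NK markers in OA and 0.544 ± 0.0168 in control (exact permutation p = 0.3). Slamf7 was at 1.99, 2.20 and 2.12 in OA replicates 1, 2 and 3, against 1.70, 1.90 and 1.62 in control replicates 1, 2 and 3, and so higher in each OA library relative to the markers. Zap70 was at 1.12, 1.11 and 1.26 in OA replicates 1, 2 and 3, against 1.02, 1.01 and 0.899 in control replicates 1, 2 and 3, likewise with no overlap. The log2 differences were 0.28 for Slamf7 and 0.25 for Zap70 (exact permutation p = 0.1 each, the smallest possible, and 0.2 adjusted over 4 genes). A higher ratio without overlap was found for 81.9% of the table, since the marker sum itself was lower in OA. The sum is led by Ccl5, Gzmb, Gzmc and Il2rb, so the ratio also follows the cytotoxic effector genes among the markers; with the geometric mean of the 14 markers, which weights them equally, the log2 differences were −0.06 for Ncr1, −0.000525 for Cd244a, 0.22 for Slamf7 and 0.20 for Zap70.

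**Figure D3:**
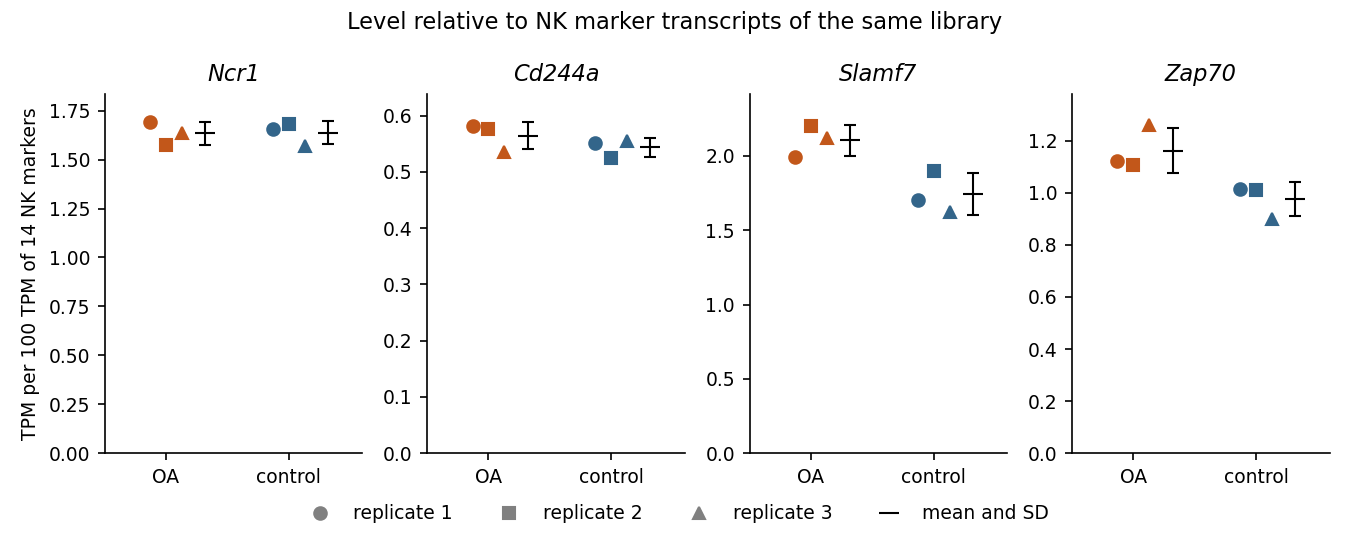
TPM of each gene per 100 TPM of 14 NK markers in the same library, for OA and control libraries (points, marked by replicate number), with mean and SD over 3 libraries; axes start at 0. Ncr1 and Cd244a overlap between the groups, while each OA library lies above each control library for Slamf7 and Zap70.

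Most listed B cell and myeloid markers had higher levels in OA than in control libraries. The 5 listed B cell markers of 17, led by Ly6d, Cd79a, Mzb1 and Spib, summed to 461 to 539 TPM in OA and 294 to 366 TPM in control; 4 rose and Pax5 did not pass, where 36% of the whole table was called higher. The 11 listed myeloid markers of 24, led by Il1b, Cd14, Itgam and Adgre1, summed to 5950 to 6322 TPM in OA and 4739 to 5290 TPM in control; 9 rose and 2 fell. Without OA replicate 1, 4 B cell and 7 myeloid markers rose, and without OA replicate 3, 4 and 6 did (limma). Without control replicate 2, 3 B cell and 3 myeloid markers rose, and without control replicate 3, 4 and 5 did. Among all 559 genes 177, 174, 87 and 119 were called higher in these 4 fits. Without OA replicate 2 or control replicate 1, 0 of either list and 0 of all 559 genes rose. Of 18 T cell markers, Icos and Cd28 were listed, summing to 194 to 240 TPM in OA and 259 to 291 TPM in control, and the defining genes Cd3d, Cd3e and Cd3g were not listed. The part of these cells in the differences of Ncr1, Cd244a, Slamf7 and Zap70 was not tested.

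Control replicate 3 had the highest NK marker sum and the lowest B cell marker sum, and OA replicate 3 the lowest NK and the highest B cell sum, matching their places for the 4 genes. Of 272 genes lower in OA, OA replicate 3 was the lowest library for 263 and control replicate 3 the highest for 245. OA replicate 3 also held heart muscle transcripts: 8 listed genes such as Actc1, Myl2 and Mb, chosen after their values were seen, summed to 5585 TPM in OA replicate 3, or 0.558% of the TPM scale, against 40.3 and 422 TPM in OA replicates 1 and 2 and 27.6 to 48.3 TPM in control libraries. Their part in the differences of the 4 genes was not tested; the log2 fold changes without OA replicate 3 were −0.42 for Ncr1, −0.32 for Cd244a, −0.15 for Slamf7 and −0.22 for Zap70.

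**Figure D4:**
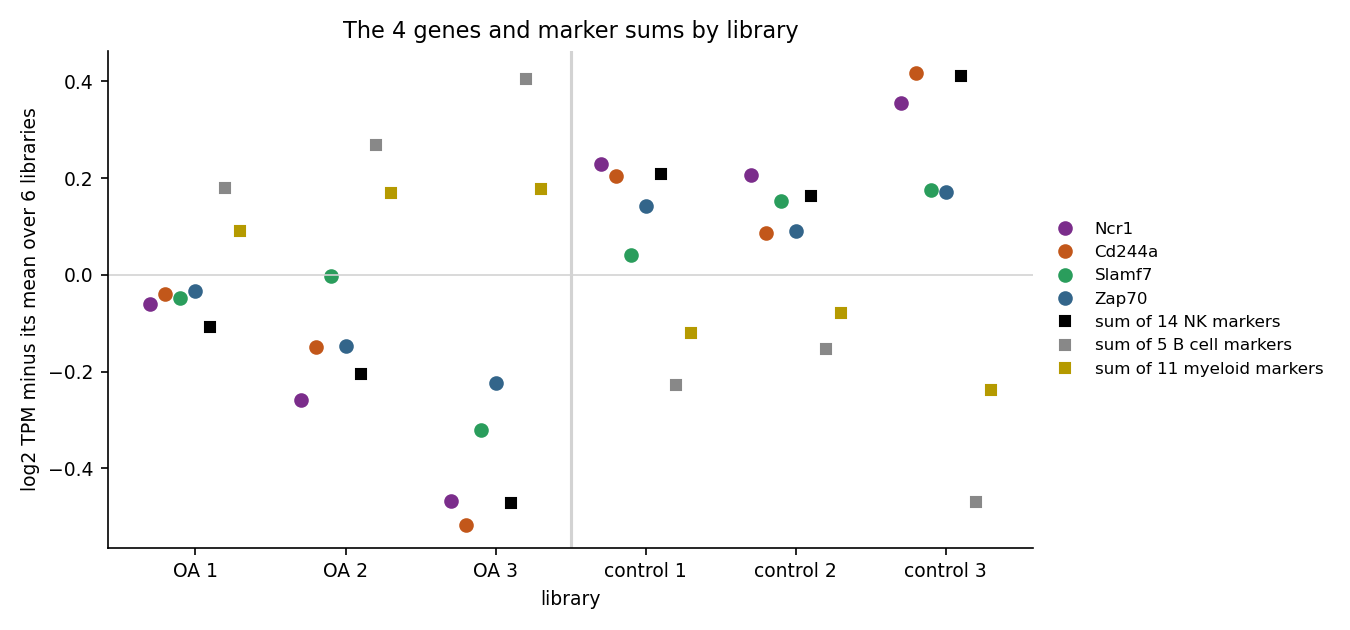
Log2 TPM minus its mean over the 6 libraries, by library, for Ncr1, Cd244a, Slamf7 and Zap70 (circles) and for the summed TPM of 14 NK, 5 B cell and 11 myeloid markers (squares). The 4 genes and the NK marker sum are lowest in OA replicate 3 and highest in control replicate 3, where the B cell marker sum is highest and lowest.

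Genes with the most similar profile were found by the root mean square difference between centred log2(TPM + 1) values over the 6 libraries, where 0 means equal profiles. Profiles were not scaled to equal spread, so genes that vary little, such as Zap70, tend to have smaller differences from their neighbours. Nearest to Ncr1 were Klri2, a lectin-like NK receptor gene (0.0341), Tnfsf10 (TRAIL; 0.0353), P2ry14, a receptor for UDP-sugars (0.0374), Ly6i (0.0382) and Il2ra, an IL-2 receptor chain (0.0428). Nearest to Cd244a were the kinase gene Pim2 (0.0455), Galnt3 (0.047), Sytl2 (0.0502), Klri2 (0.0532) and Il12rb2, a chain of the IL-12 receptor (0.057). Klri2 was thus on both lists.

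Zap70 had the closest neighbour of all, Socs1, an inhibitor of cytokine receptor signalling, at 0.0104: Socs1 averaged 322 ± 21.6 TPM in OA and 385 ± 10.9 TPM in control (SD, n = 3 each), 0.836 of the control level against 0.830 for Zap70. It was followed by Fyn (0.0208), Anxa6 (0.021), Bcl2 (0.0235) and Adgrg5 (0.0283). For Slamf7 the nearest were Sh3bp2, an adaptor (0.033), Fkbp5 (0.037), Tmem154 (0.0385), Padi2 (0.0413) and Rinl (0.0418). The only other SLAM receptor genes listed, Cd244a and Slamf8, were not among them. Between the 4 genes the smallest differences were those of Ncr1 and Cd244a, at 0.0738, and of Slamf7 and Zap70, at 0.0859, and the neighbouring genes Cd244a and Slamf7 differed by 0.152.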

How the data were processed

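RNA of 3 OA and 3 control libraries was measured; groups follow the labelled treatment, and columns were matched to samples by title. TPM per library, a log2 fold change, a p-value and a Q value per gene were computed by the authors and deposited in one table; per the submitters' processing notes, Bowtie2, RSEM 1.3.1, DESeq2 1.4.5 and mm10 were used, without roles or order. The listed genes summed to 12.2% to 12.6% of the TPM scale per library; other genes are not analysed here.

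The main test was limma 3.58.1 (R 4.3.3) with log2(TPM + 1) as the measure, a scale that understates changes of low genes, over all 559 genes with no filter or covariate, Benjamini-Hochberg adjusted p under 0.05, two-sided. The fit was run on simulated data with independent noise in each gene and no selection of genes. It therefore does not measure the error rate in this table, whose genes were selected on the contrast. Ratios were compared by exact permutation tests over libraries. Python 3.11.15, numpy 2.4.6, pandas 2.3.3 and matplotlib 3.10.9 were used for tables and plots.

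The 4 genes and all gene lists were chosen with earlier results of these data known. Named genes were the 4 genes, every listed member of 4 lists (SLAM, activating, ITAM signalling, inhibitory), the 5 nearest named genes in profile to each of the 4, and up to 4 markers of highest level per cell type; 1 B cell marker is not reported here and was left out of the sums. Positions and promoters are those of RefSeq on GRCm38.p6, matched by symbol for 4 of 4 genes. Alternatives were other pseudocounts, a level filter, 2 library scalings, the replicate number as a block, another limma prior, a stricter threshold and leaving out libraries.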

Additional observations from a re-analysis of the deposited data

How the results depend on the processing

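For Ncr1, Cd244a, Slamf7 and Zap70 the log2 fold change was negative in limma under every alternative run. Scaling the libraries to equal medians left 1 of the 4 genes called lower, 1 of the SLAM, 1 of the activating, 0 of the ITAM signalling genes and 8 of the 14 NK markers, with Cd244a at −0.47 and Zap70 at −0.28 not passing (adjusted p = 0.0657 and 0.051, limma), called 244 listed genes in place of 425, and made 33.6% of the calls lower against 52.7%. An intensity trend and robust prior left Slamf7 at −0.24 but past the threshold. An adjusted p under 0.01 called 0 of the 4 genes and 1 listed gene. Whether the replicate numbers pair the libraries was not settled. Deviations from the group means correlated at 0.33, −0.11 and −0.08 over 559 genes for same-numbered libraries. For libraries of unlike number they correlated at −0.40 to 0.35. With 3 libraries per group and genes selected on this contrast, these values cannot decide the question. With the replicate number as a block, 0 of the 4 genes and 0 listed genes were called in limma (89 lower and 149 higher at an unadjusted p under 0.05), with log2 fold changes of −0.52 (Ncr1), −0.46 (Cd244a) and −0.27 (Zap70) as before. The causes were not tested.

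With 1 library left out at a time, the log2 fold change ranged from −0.62 to −0.42 for Ncr1, −0.55 to −0.32 for Cd244a, −0.31 to −0.15 for Slamf7 and −0.32 to −0.22 for Zap70, with adjusted p of 0.0357 to 0.0793, 0.0417 to 0.108, 0.0807 to 0.161 and 0.0366 to 0.0824 (limma); 0 to 3 of the 4 genes and 0 to 364 listed genes were called. Relative to the NK marker sum, Ncr1 ranged from −0.0318 to 0.0243 and Cd244a from 0.03 to 0.09, and Cd244a was at −0.000525 with the geometric mean. The Slamf7 to Zap70 ratio, left-out libraries added after the data were seen, ranged from −0.0441 to 0.0767.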
